A study of Mus musculus with 24 samples.

Results

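The 10 genes described here are Gclc, Gclm, Gss, Gsr, Slc7a11, Txn1, Txnrd1, Srxn1, Prdx1 and Nqo1. They encode proteins of glutathione synthesis and recycling and of the thioredoxin system, and a quinone reductase (Nqo1). They were chosen by name as targets of the transcription factor NRF2, and their probes were found by the gene name in the array files, older synonyms included. The 10 genes had 17 probes, out of 41174 probes and 19146 named genes on the array. Each gene was represented by its brightest probe, which was well above background and unsaturated on all 24 arrays, so that all 10 passed the filter on dim probes in both sets of arrays.

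The cells were immortalized mouse embryonic fibroblasts (MEFs) without Ku70 (Ku70-/-, gene Xrcc6), a protein of double-strand break repair, and all 24 arrays, controls included, came from cells of this genotype. One set of 15 arrays held 5 groups of 3 replicates. These were an untreated control labelled 4 hr, cells treated with the oxidizing agent potassium bromate (KBrO3, 20 mM for 1 hr) and left to repair for a further 3 or 23 hr (4 hr and 24 hr below), and cells co-exposed to KBrO3 and bisphenol A (BPA, 150 μM) and collected at the same times. Co-exposed cells received BPA 1 hr before KBrO3, during it and until collection. A second set of 9 arrays held its own untreated control, with no time in its label. It also held cells treated with 150 μM BPA alone and labelled 4 or 24 hr, again with 3 replicates each. By the study's methods these times count from the start of KBrO3 in the parallel treatments, and BPA alone lasted 1 hr longer than the label. No control was labelled 24 hr, and the ethanol in which BPA was dissolved had no control of its own, so the 24 hr comparisons with control also hold any difference of time in culture. The study's methods call the 3 replicates of a condition biological.

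NRF2 (gene Nfe2l2) is held in the cytoplasm and turned over by KEAP1, whose reactive cysteines sense oxidants and electrophiles. Released from KEAP1, NRF2 enters the nucleus, pairs with small MAF proteins and binds antioxidant response elements (AREs) of genes for glutathione synthesis, the thioredoxin system and quinone reduction. BACH1 competes for the same elements and represses them. In fibroblasts, glutathione and thioredoxin supply the reducing power that removes peroxides and keeps protein thiols reduced.

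Because these genes were chosen as NRF2 targets, the 250 bases before each start site (RefSeq, GRCm38.p6) were searched on both strands for 2 forms of the ARE core, TGACNNNGC and TGAGNNNGC. A match whose middle bases complete TGAGTCA or TGACTCA also holds the motif of the factor AP-1, as do the match nearest the start in Srxn1 and that of Prdx1. Windows were found for 8 of the 10 genes, 10 windows in all since Txnrd1 had 3, while Gclc and Gsr had none. A match lay in 5 of the 10 windows, against 23.0% of all 32851 windows of the same length. The 5 windows follow, as the sequences that carry a match, 5′ to 3′ on the strand of the gene, with the matches in capitals.
Gclm (chr3:122245307-122245556, plus strand): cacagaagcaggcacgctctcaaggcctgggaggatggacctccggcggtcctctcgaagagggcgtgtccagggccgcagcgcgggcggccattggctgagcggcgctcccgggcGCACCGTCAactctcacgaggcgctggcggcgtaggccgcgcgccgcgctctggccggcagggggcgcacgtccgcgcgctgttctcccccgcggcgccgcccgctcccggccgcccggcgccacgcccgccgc
Slc7a11 (chr3:50443614-50443863, minus strand): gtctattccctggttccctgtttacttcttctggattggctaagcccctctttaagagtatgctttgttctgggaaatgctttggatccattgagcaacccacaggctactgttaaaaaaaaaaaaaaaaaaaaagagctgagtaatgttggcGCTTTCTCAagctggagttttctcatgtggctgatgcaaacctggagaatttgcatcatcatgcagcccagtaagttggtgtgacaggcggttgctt
Srxn1 (chr2:152105274-152105523, plus strand): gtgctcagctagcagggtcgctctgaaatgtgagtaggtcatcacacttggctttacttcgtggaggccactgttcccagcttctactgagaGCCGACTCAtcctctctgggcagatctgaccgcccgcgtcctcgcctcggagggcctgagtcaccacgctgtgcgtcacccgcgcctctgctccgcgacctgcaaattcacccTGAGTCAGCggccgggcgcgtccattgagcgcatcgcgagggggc
Prdx1 (chr4:116685349-116685598, plus strand): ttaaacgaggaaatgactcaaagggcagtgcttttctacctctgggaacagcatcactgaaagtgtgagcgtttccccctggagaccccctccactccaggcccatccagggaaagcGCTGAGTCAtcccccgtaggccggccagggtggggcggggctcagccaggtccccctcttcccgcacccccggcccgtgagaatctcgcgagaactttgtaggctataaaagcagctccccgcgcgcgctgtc
Txnrd1 (chr10:82858956-82859205, plus strand): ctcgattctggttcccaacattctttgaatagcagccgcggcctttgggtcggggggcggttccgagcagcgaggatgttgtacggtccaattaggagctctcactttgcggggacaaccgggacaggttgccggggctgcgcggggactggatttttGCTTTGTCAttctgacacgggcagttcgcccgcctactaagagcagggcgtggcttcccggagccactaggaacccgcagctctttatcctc
The Srxn1 window held 2 matches, TGAGTCAGC with its first base 45 bases before the start and GCCGACTCA 158 bases before it. In the other windows the first base of the match lay 134 bases before the start in Gclm, 97 bases in Slc7a11, 133 bases in Prdx1 and 92 bases in Txnrd1. The windows of Gss, Txn1 and Nqo1 and the other 2 of Txnrd1 held no match, which says only that these letters do not occur in those 250 bases.

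On an array of the first set 57.7–68.1% of spots were well above background, and 76.4–79.4% on one of the second. A level below is the log2 of the processed signal minus the 75th percentile of its array, with 75th percentile signals of 815–1405 (first set) and 1031–1545 (second set). The second set was the noisier. For the 10 genes the median residual SD was 0.0637 for the first set but 0.243 in the second, while over the 27180 probes tested in both it was 0.106 and 0.318. A difference of a given size thus reached the threshold less easily in the second set, and levels were not compared across sets. The Xrcc6 probe was well above background on all 24 arrays, but its place relative to the deleted part is not given in the sources used here and no cells with an intact gene were analysed here, so it checks no label. Of 10 fibroblast markers, 9 were well above background on every array of the first set and 10 on every array of the second, while the leukocyte marker Ptprc and the endothelial marker Pecam1 were on none. Of the 6 leukocyte markers, 2 were well above background on every array of the first set and 3 on every array of the second, and so were 2 and 3 of the 5 endothelial markers. The leukocyte marker Cd68 went from a level of -3.08 in the first control to -0.83 at 4 hr after KBrO3 and -1.42 after co-exposure, and to -1.92 and -1.21 at 24 hr. Cd14 went the other way at 4 hr, from 1.30 to 0.93 and 0.56. The summed leukocyte level was 1.37–1.43 in that control, 1.32–1.40 and 0.95–1.00 at 4 hr and 1.34–1.45 and 1.24–1.57 at 24 hr. The summed fibroblast level fell within the first set from 10.8–10.9 in control to 9.46–9.63 at 24 hr after KBrO3 and 8.94–9.16 after co-exposure, with 10.7–10.8 and 10.4 at 4 hr. The summed adipocyte list, with Plin1 and Cd36 well above background on none of these arrays, went from 5.48–5.65 in control to 4.02–4.08 and 3.72–3.83 at 24 hr. In the second set the summed fibroblast level was 9.45–9.66 in control, 9.42–9.67 at 4 hr of BPA alone and 9.15–9.42 at 24 hr. The part of these shifts in the results below was not tested, and fewer cells of a type and less RNA per cell cannot be told apart in bulk RNA.

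At 4 hr after KBrO3, all 10 genes were higher than in the control, and every KBrO3 array was above every control array. The 2 subunits of glutamate-cysteine ligase, the cystine carrier and sulfiredoxin rose by 11.7-fold to 39.5-fold, thioredoxin reductase by 11.6-fold, and the other 5 genes by 1.68-fold to 3.97-fold. The question of this comparison was what an oxidizing agent alone did in these repair-deficient cells. In the same comparison 72.4% of the 14294 genes tested passed the threshold (adjusted p under 0.05), 34.3% of all genes as higher and 38.2% as lower, and 80.4% did not overlap between groups, so a call by itself separates the 10 genes little from the rest. The median change of the 10 genes was 2.76 on the log2 scale, beside 0.02 over all genes tested. At the stricter threshold of the study's methods (Bonferroni-adjusted p under 0.01 and a fold beyond 1.5), 10 of 10 passed and 31.1% of all genes did.

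Gclc and Gclm encode the catalytic and the modifier subunit of glutamate-cysteine ligase, which carries out the rate-limiting step of glutathione synthesis. The levels of Gclc were 0.16, 0.30 and 0.35 in the control arrays and 5.59, 5.58 and 5.56 at 4 hr after KBrO3. This was a rise of 5.30 ± 0.05 (SE, n = 3 per group) on the log2 scale, or 39.5-fold (limma, Benjamini-Hochberg adjusted p = 4.65e-15). Gclm went from -1.31, -1.50 and -1.43 to 2.16, 2.13 and 2.10, a rise of 3.55 ± 0.05 or 11.7-fold (adjusted p = 8.64e-14). In both subunits the gap between groups was many times the spread within either.

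Slc7a11, the light chain of the cystine-glutamate exchanger that brings in the cysteine for glutathione, rose from -3.20, -3.06 and -3.30 to 1.87, 1.81 and 1.87. The change was 5.04 ± 0.07, or 32.8-fold (adjusted p = 8.69e-14), and its other 3 probes gave 4.51, 4.60 and 5.12. No control array had the dimmest of these probes well above background, so its signal was at least 20.3-fold higher after KBrO3. Gss, glutathione synthetase, which adds glycine in the last step, rose by 1.53 ± 0.07 or 2.89-fold (adjusted p = 6.96e-10), with control levels of 0.83 to 1.07 and KBrO3 levels of 2.48 to 2.52. Gsr, glutathione reductase, which returns oxidized glutathione to its reduced form, rose by 0.82 ± 0.08 or 1.77-fold (adjusted p = 1.01e-06), and its other 2 probes gave 0.52 and 0.87. Within glutathione metabolism, the ligase subunits and cystine import thus moved by larger folds than the later synthetic step or recycling.

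In the thioredoxin system, Srxn1 (sulfiredoxin, which repairs overoxidized peroxiredoxins) went from 2.60, 2.51 and 2.45 in control to 7.57, 7.58 and 7.57 at 4 hr after KBrO3. The change was 5.06 ± 0.07, or 33.3-fold (adjusted p = 7.92e-14), with 5.29 and 5.23 in its other 2 probes. Txnrd1, the cytosolic thioredoxin reductase that passes electrons from NADPH to thioredoxin, rose by 3.54 ± 0.06 or 11.6-fold (adjusted p = 2.26e-13), from 4.69, 4.59 and 4.61 to 8.17, 8.11 and 8.23. The reductase and sulfiredoxin thus stood far outside the control range on every array. Prdx1, a peroxiredoxin that removes hydrogen peroxide, rose by 1.99 ± 0.03 or 3.97-fold (adjusted p = 2.41e-13). Txn1, thioredoxin itself, rose by 0.75 ± 0.04 or 1.68-fold (adjusted p = 3.5e-09), from 5.88 to 5.98 in control to 6.65 to 6.71. Nqo1, a quinone reductase often used as a readout of NRF2, rose by 1.05 ± 0.05 or 2.07-fold (adjusted p = 1.64e-09), from 0.85 to 0.91 in control to 1.91 to 1.97.

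The third control array shared its slide with the KBrO3 arrays of 4 hr, and within that slide (3 arrays against 1, with no test) all 10 genes were again higher, Gclc by 5.22, Slc7a11 by 5.15 and Srxn1 by 5.12. For the other comparisons with this control, slide and treatment cannot be told apart.

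**Figure D1:**
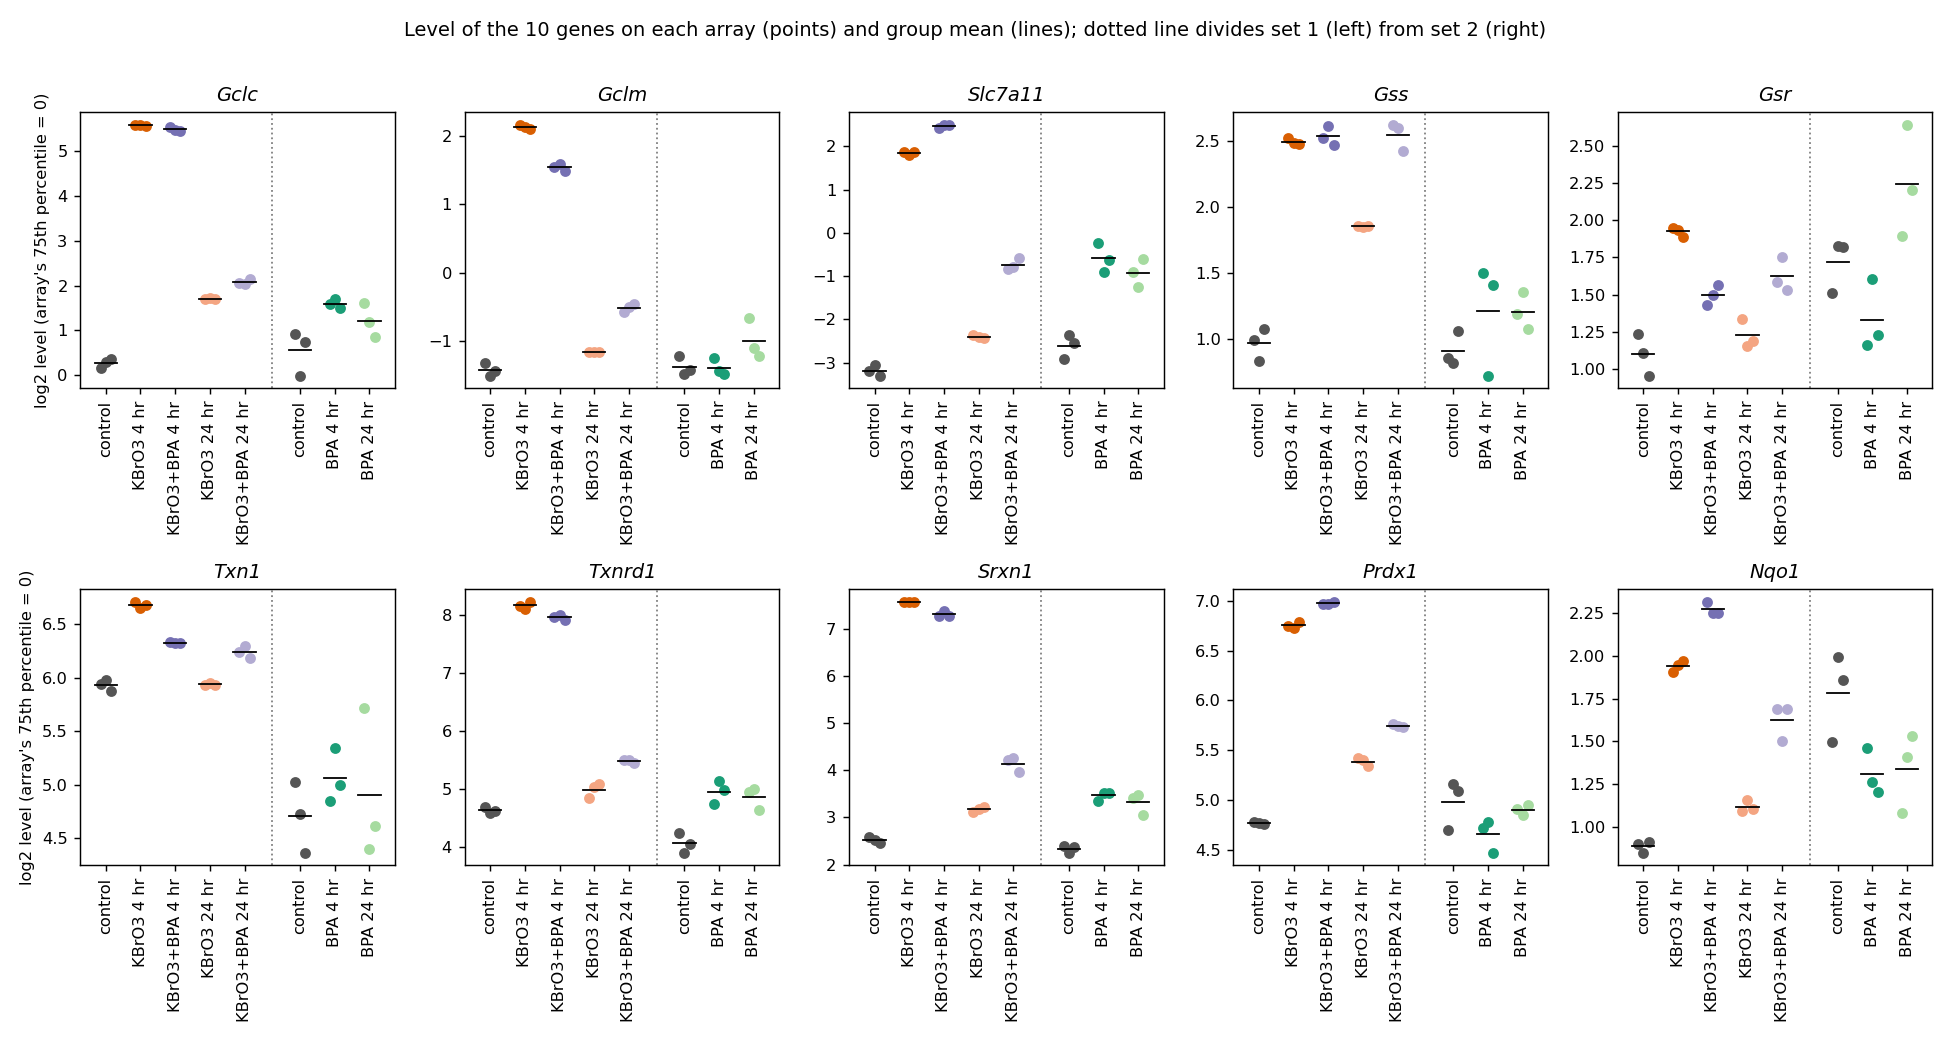
Level of each of the 10 genes on every array (log2 processed signal minus the 75th percentile of the array), with a panel for each gene and its own y axis; points are arrays, bars are group means, and the dotted line separates the first set (control, KBrO3 alone and co-exposure) from the second (control and BPA alone). Gclc sits between 0.16 and 0.35 in the first control and between 5.56 and 5.59 at 4 hr after KBrO3.

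Co-exposure at 4 hr also left all 10 genes above the control. All comparisons with control within a set use the same 3 control arrays and are given side by side. Slc7a11 rose by 5.66 ± 0.07 or 50.5-fold, Gclc by 5.22 ± 0.05 or 37.2-fold, Srxn1 by 4.8 ± 0.07 or 27.8-fold, Txnrd1 by 3.33 ± 0.06 or 10.1-fold and Gclm by 2.95 ± 0.05 or 7.74-fold. Prdx1 rose 4.63-fold, Gss 2.97-fold and Nqo1 2.61-fold, and the 2 smallest changes were 0.40 ± 0.08 in Gsr (1.32-fold, adjusted p = 0.000583) and 0.39 ± 0.04 in Txn1 (1.31-fold, adjusted p = 1.35e-06). With quantile normalization that of Txn1 was 0.08 and did not pass (adjusted p = 0.115). In this comparison 80.3% of all genes tested passed, 39.6% as higher and 40.6% as lower, and the median change was 2.58 in the 10 genes and 0.01 over all genes. At the threshold of the study's methods 8 of 10 passed, the exceptions being Gsr and Txn1, against 35.7% of all genes.

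By 24 hr after KBrO3 alone, 8 of the 10 genes were still above the control, at 1.17-fold to 2.71-fold. Of all genes tested 69.1% passed, 31.2% as higher and 38.0% as lower, and the median change was 0.49 in the 10 genes beside -0.07 over all genes. Gclc held the largest difference, with levels of 1.71, 1.72 and 1.71 and a change of 1.44 ± 0.05 (2.71-fold, adjusted p = 3e-10). Gss followed with 0.89 ± 0.07 (1.85-fold), then Slc7a11 with 0.78 ± 0.07 (1.72-fold, levels of -2.37, -2.41 and -2.44), Srxn1 with 0.65 ± 0.07 (1.57-fold) and Prdx1 with 0.62 ± 0.03 (1.54-fold). The remaining 3 that passed were Txnrd1 at 0.35 ± 0.06 (adjusted p = 0.000194), Gclm at 0.26 ± 0.05 (adjusted p = 0.000799) and Nqo1 at 0.23 ± 0.05 (adjusted p = 0.00168). The other probes of Slc7a11 had mean levels of -3.90, -3.67 and -5.77, against -5.05, -4.38 and -5.70 in control. The last, the dimmest, was thus no higher, and was well above background on 1 of these 3 arrays and on 0 in control. With normexp background correction the value of Slc7a11 was -0.33 (adjusted p = 0.400) and that of Gclm -0.18 (adjusted p = 0.348). Gsr at 0.12 ± 0.08 (adjusted p = 0.183) and Txn1 at 0.0045 ± 0.04 (adjusted p = 0.928) did not pass, although the other 2 probes of Gsr did, at 0.17 (adjusted p = 0.0343) and 0.39 (adjusted p = 0.0103). Gsr also passed with the mean of its probes (0.23), with median scaling (0.27) and with normexp (0.31), and Txn1 with quantile normalization (0.23, adjusted p = 0.000372). The threshold of the study's methods kept 4 of the 10, against 19.8% of all genes. The summed fibroblast markers given above were lower in this group and in co-exposed cells at 24 hr than in control.

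Set against 4 hr, all 10 genes were lower 24 hr after KBrO3 alone. On the log2 scale the difference was -4.40 in Srxn1, -4.25 in Slc7a11, -3.87 in Gclc, -3.29 in Gclm and -3.19 in Txnrd1. It was -1.37 in Prdx1, -0.82 in Nqo1, -0.74 in Txn1, -0.70 in Gsr and -0.64 in Gss (largest adjusted p among the 10, 4.96e-06). In this comparison 77.6% of all genes passed, 34.1% as higher and 43.5% as lower. These arrays of 4 and 24 hr shared no slide, so slide and time cannot be told apart. With quantile normalization Txn1 gave -0.05 and did not pass (adjusted p = 0.315).

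After co-exposure all 10 genes were above the control at 24 hr, where 72.2% of all genes passed and 34.3% did so as higher. Slc7a11 was 5.47-fold higher (2.45 ± 0.07), Gclc 3.52-fold (1.82 ± 0.05), Srxn1 3.08-fold (1.62 ± 0.07) and Gss 3.00-fold (1.59 ± 0.07). The others lay between 1.97-fold in Prdx1 (0.98 ± 0.03) and 1.24-fold in Txn1 (0.31 ± 0.04, adjusted p = 1.85e-05). Gclm lost its call with normexp background correction (0.40, adjusted p = 0.0554). The median change was 0.94 beside -0.07 over all genes, and 8 of the 10 passed the threshold of the study's methods, against 23.7% of all genes.

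**Figure D2:**
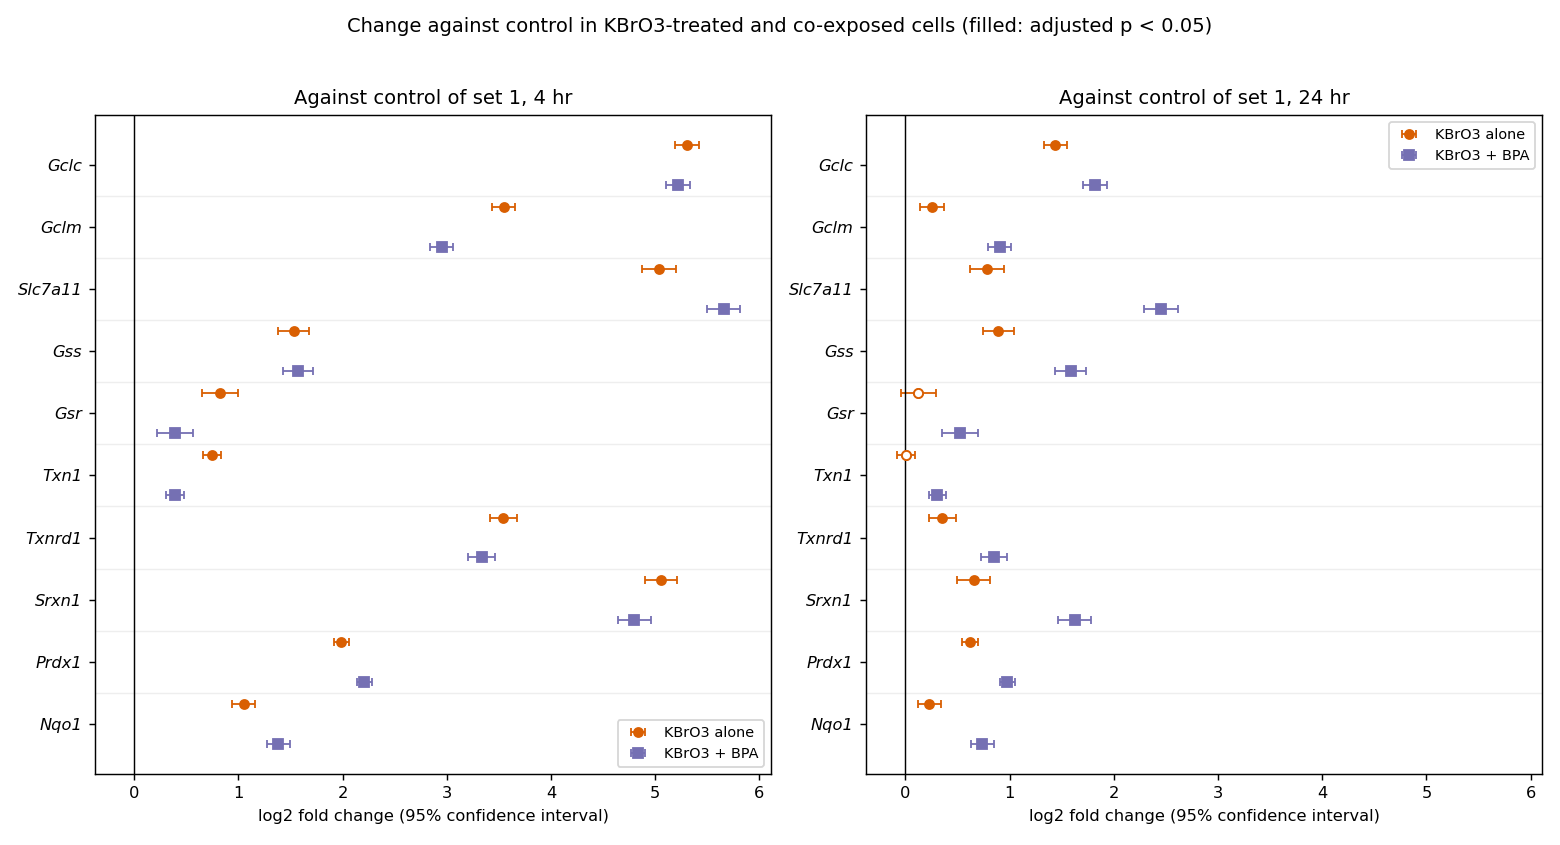
Log2 fold change of each gene against the control of the first set at 4 hr (left) and 24 hr (right), for KBrO3 alone (circles) and co-exposure (squares), with 95% confidence intervals; filled symbols passed at adjusted p under 0.05. At 4 hr all 20 symbols are filled and lie right of 0, and at 24 hr the open circles are Gsr and Txn1 after KBrO3 alone.

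In co-exposed cells the fall with time was smaller for most of the 10 genes, by the interaction test given further on. Between 4 and 24 hr of co-exposure 7 of the 10 genes fell, beside 47.5% of all genes as lower, 36.9% as higher and 84.4% in either direction. These arrays of 4 and 24 hr shared no slide either. The difference was -3.40 in Gclc, -3.21 in Slc7a11, -3.17 in Srxn1, -2.49 in Txnrd1, -2.05 in Gclm, -1.23 in Prdx1 and -0.65 in Nqo1. Gss differed by 0.01 (adjusted p = 0.856), Gsr by 0.13 (adjusted p = 0.153) and Txn1 by -0.09 (adjusted p = 0.0600), none of which passed. The value of Txn1 turned to 0.37 (adjusted p = 0.00121) with arrays scaled to their median and to 0.36 (adjusted p = 7.35e-06) with quantile normalization, but it was called lower with probes averaged per gene (-0.09, adjusted p = 0.0450) and without co-exposure array 2 of 24 hr (-0.12, adjusted p = 0.0219). Median scaling also made Gss (0.47, adjusted p = 0.000356) and Gsr (0.59, adjusted p = 0.000136) higher at 24 hr and left Nqo1 without a call (-0.19, adjusted p = 0.0585). Gsr was also called with quantile normalization (0.19) and with slide as a fixed (0.34) or a random block (0.24).

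Setting co-exposure directly against KBrO3 alone shows which genes differed with BPA beside the oxidant. At 24 hr all 10 genes were higher in co-exposed cells, where 50.2% of all genes passed, 28.2% as higher and 22.0% as lower. Slc7a11 stood at -0.84, -0.78 and -0.57 in co-exposed cells and -2.37, -2.41 and -2.44 after KBrO3 alone, a difference of 1.67 ± 0.07 or 3.18-fold (adjusted p = 6.94e-09). Srxn1 stood at 4.21, 4.26 and 3.96 against 3.11, 3.18 and 3.23, a difference of 0.97 ± 0.07 or 1.96-fold (adjusted p = 5.41e-07). These were the 2 largest differences among the 10 genes. Gss differed by 0.70 ± 0.07 and Gclm by 0.65 ± 0.05, and these 4 genes also passed the threshold of the study's methods, which 7.42% of all genes did. Nqo1 differed by 0.51, Txnrd1 by 0.50, Gsr by 0.40, Gclc by 0.38, Prdx1 by 0.36 and Txn1 by 0.30 (largest adjusted p, 0.00135 in Gsr). The median was 0.50 in the 10 genes and 0.00 over all genes. On the slide that held 2 arrays of each group all 10 differences had the same direction, Slc7a11 at 1.61 and Srxn1 at 1.03. With normexp background correction Gsr (0.35), Prdx1 (0.35), Txn1 (0.27) and Txnrd1 (0.47) kept their direction but lost their calls (adjusted p between 0.104 and 0.398).

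At 4 hr the same comparison was mixed. Among the 10 genes 3 were higher and 5 lower in co-exposed cells, where 28.2% of all genes passed as higher, 32.5% as lower and 60.7% in all, so the share that was higher is near the background. Slc7a11 was higher by 0.62 ± 0.07 (2.42, 2.50 and 2.49 against 1.87, 1.81 and 1.87, adjusted p = 2.27e-05), Nqo1 by 0.33 ± 0.05 and Prdx1 by 0.22 ± 0.03. Gclm was lower, at 1.55, 1.58 and 1.48 against 2.16, 2.13 and 2.10, a difference of -0.60 ± 0.05 (adjusted p = 2.29e-06), and it alone of the 10 passed the threshold of the study's methods, as 6.05% of all genes did. Gsr at -0.43, Txn1 at -0.35, Srxn1 at -0.26 and Txnrd1 at -0.21 were lower too, while Gclc at -0.09 (adjusted p = 0.174) and Gss at 0.04 (adjusted p = 0.622) did not pass. The other 2 probes of Gsr had smaller differences, with mean levels of 0.90 and 0.83 in co-exposed cells against 1.14 and 0.92 after KBrO3 alone. The brightest probe of Srxn1 went against its other 2, which gave 0.19 (adjusted p = 0.00535) and 0.30 (adjusted p = 0.0798), and the mean of its 3 probes was 0.08 (adjusted p = 0.343), so its direction was not settled. With normexp Nqo1 was the 1 gene of the 8 that passed, with Slc7a11 at 0.64 (adjusted p = 0.309) and Gclm at -0.53 (adjusted p = 0.0642). Arrays of the 2 groups lay on different slides, and slide and treatment cannot be told apart here.

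The scaling of the arrays bears on the small differences at 4 hr. With arrays scaled to their median, the calls of Prdx1 (0.08, adjusted p = 0.359) and Nqo1 (0.19, adjusted p = 0.0730) were lost and Gclc became lower (-0.23, adjusted p = 0.0238), while Slc7a11 (0.48) and Gclm (-0.74) kept theirs. That scaling moved the median of all probes by -0.14 and the share of called probes that were higher from 50.5% to 33.2%. At 24 hr it moved the median by 0.17 and that share from 49.4% to 73.8%. Txnrd1 lost its call at 4 hr with quantile normalization (-0.06, adjusted p = 0.300) and with slide as a random block (-0.14, adjusted p = 0.244).

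Whether the signed difference with BPA changed from 4 to 24 hr was tested as an interaction within the first set. It changed upward in 9 of the 10 genes, where 57.5% of all genes passed, 31.0% upward and 26.5% downward. The change was 1.25 in Gclm (adjusted p = 2.41e-07), 1.23 in Srxn1 (adjusted p = 2.84e-06) and 1.05 in Slc7a11 (adjusted p = 9.95e-06). In Gclm, Gsr, Txn1 and Txnrd1, which were called lower at 4 hr, the difference went from below 0 to above 0. Their calls at 4 hr did not hold in every other setting, as given above. In Srxn1 the brightest probe did the same, but its other 2 gave values above 0 at 4 hr, so no change of sign is settled. Gsr changed by 0.83, Txnrd1 by 0.70, Gss and Txn1 by 0.65 each, Gclc by 0.47 and Prdx1 by 0.14 (adjusted p = 0.0274), while Nqo1 at 0.18 did not pass (adjusted p = 0.0572). The value of Gsr is that of its brightest probe, and its other 2 probes had smaller differences at 4 hr, as given above. The threshold of the study's methods kept 3 of the 10, against 4.95% of all genes. Since the groups of 4 hr lay on different slides, slide and BPA cannot be told apart in that arm of the test. Prdx1 kept its call in 10 of 20 other settings, among them the series table, whose values are the same. It gave -0.11 (adjusted p = 0.257) with quantile normalization and 0.08 (adjusted p = 0.964) with normexp, and it did not pass without the filter on dim probes (adjusted p = 0.0542) or with the replicate number as a block (adjusted p = 0.0527). It also lost its call without array 1 or 3 of KBrO3 or array 1 or 2 of co-exposure at 4 hr, and without KBrO3 array 3 or co-exposure array 1 at 24 hr (adjusted p between 0.0524 and 0.0726). With normexp Slc7a11, Txn1 and Txnrd1 did not pass either (adjusted p between 0.113 and 0.444). Nqo1 passed with median scaling (0.49, adjusted p = 0.00441) and without co-exposure array 2 of 24 hr (0.24, adjusted p = 0.00467). The share of called probes with an upward change went from 47.0% to 75.9% with median scaling, which moved the median of all probes by 0.31.

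BPA alone left most of the 10 genes without a call in the noisier second set. At 4 hr 3 of the 10 were higher than the control of that set and none was lower, where 4.75% of all 16039 genes tested passed, 3.09% as higher and 1.66% as lower. These were the cystine carrier, sulfiredoxin and thioredoxin reductase. Slc7a11 went from -2.93, -2.36 and -2.55 in control to -0.23, -0.90 and -0.62, a rise of 2.03 ± 0.26 or 4.09-fold (limma, adjusted p = 0.00415). Srxn1 went from 2.39, 2.25 and 2.37 to 3.35, 3.52 and 3.53, a rise of 1.13 ± 0.18 or 2.19-fold (adjusted p = 0.0116). Txnrd1 went from 4.24, 3.90 and 4.05 to 4.75, 5.13 and 4.98, a rise of 0.89 ± 0.20 or 1.85-fold (adjusted p = 0.0400). For all 3 the lowest treated array was above the highest control array.

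Gclc, at 0.92, -0.01 and 0.75 in control and 1.59, 1.71 and 1.5 after BPA, also did not overlap, but its difference of 1.05 ± 0.29 did not pass (adjusted p = 0.0797). Nqo1, lower after BPA, was the other gene whose groups did not overlap, which makes 5 of the 10 against 28.9% of all genes. The values of the other 6 were 0.36 in Txn1, 0.30 in Gss, -0.01 in Gclm, -0.32 in Prdx1, -0.39 in Gsr and -0.47 in Nqo1, with adjusted p between 0.268 and 0.978. None of the 10 passed the threshold of the study's methods, which 0.112% of all genes did. Txnrd1 lost its call when any single array of the 6 was left out (adjusted p between 0.0571 and 0.167), and Srxn1 lost it without the second (adjusted p = 0.0534) or the third BPA array (adjusted p = 0.0747). Slc7a11 kept its call in all 6 cases, at 1.86 to 2.19, but lost it with normexp background correction (1.41, adjusted p = 0.508) and with slide as a fixed block (2.50, adjusted p = 0.175). In these settings Srxn1 (adjusted p = 0.386 and 0.302) and Txnrd1 (adjusted p = 0.6999 and 0.467) did not pass either. Txnrd1 also lost its call with median scaling, with quantile normalization, without the filter on dim probes, in a fit of only the groups compared and with the replicate number as a block (adjusted p between 0.0577 and 0.0984). The other 2 probes of Srxn1 gave 1.32 (adjusted p = 0.0955) and 1.44 (adjusted p = 0.0779). On the slide that held 2 BPA arrays and 1 control array, Slc7a11 differed by 2.50, Srxn1 by 1.05 and Txnrd1 by 0.62.

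At 24 hr of BPA alone 2 of the 10 genes were higher, where 4.35% of all genes passed, 1.81% as higher and 2.54% as lower. Slc7a11 stood at -0.91, -1.24 and -0.61, a rise of 1.69 ± 0.26 or 3.23-fold (adjusted p = 0.0116). Srxn1 stood at 3.42, 3.48 and 3.06, a rise of 0.98 ± 0.18 or 1.98-fold (adjusted p = 0.0239). Txnrd1, at 4.94, 5.0 and 4.63, gave 0.79 ± 0.20 and did not pass (adjusted p = 0.0679). The other 7 lay between -0.44 in Nqo1 and 0.66 in Gclc, with adjusted p between 0.261 and 0.868. In 6 of the 10 the groups did not overlap, against 25.2% of all genes, and none of the 10 passed the threshold of the study's methods, which 0.0312% of all genes did. Srxn1 lost its call without any control array and without the first or the second BPA array (adjusted p between 0.0567 and 0.0852), which left 1 gene called, and Slc7a11 kept its call in all 6 cases, at 1.53 to 1.86. Slc7a11 lost it with normexp (0.96, adjusted p = 0.697), with slide as a fixed block (1.38, adjusted p = 0.0976) and in a fit of only the groups compared (1.69, adjusted p = 0.0514), and so did Srxn1 (adjusted p of 0.350, 0.0999 and 0.109). With the replicate number as a block Srxn1 did not pass (adjusted p = 0.0715). Txnrd1, which has a single probe, passed at an unchanged 0.79 when probes were averaged per gene and p-values adjusted over genes (adjusted p = 0.0348). On the 2 slides that held 1 array of each group, Slc7a11 differed by 1.45 and 1.30 and Srxn1 by 1.17 and 1.11. Between 4 and 24 hr of BPA alone none of the 10 passed in limma, where 4.38% of all genes did (1.23% as higher and 3.15% as lower), and 1 had an unadjusted p under 0.05, Gsr at 0.91 (adjusted p = 0.0714).

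**Figure D3:**
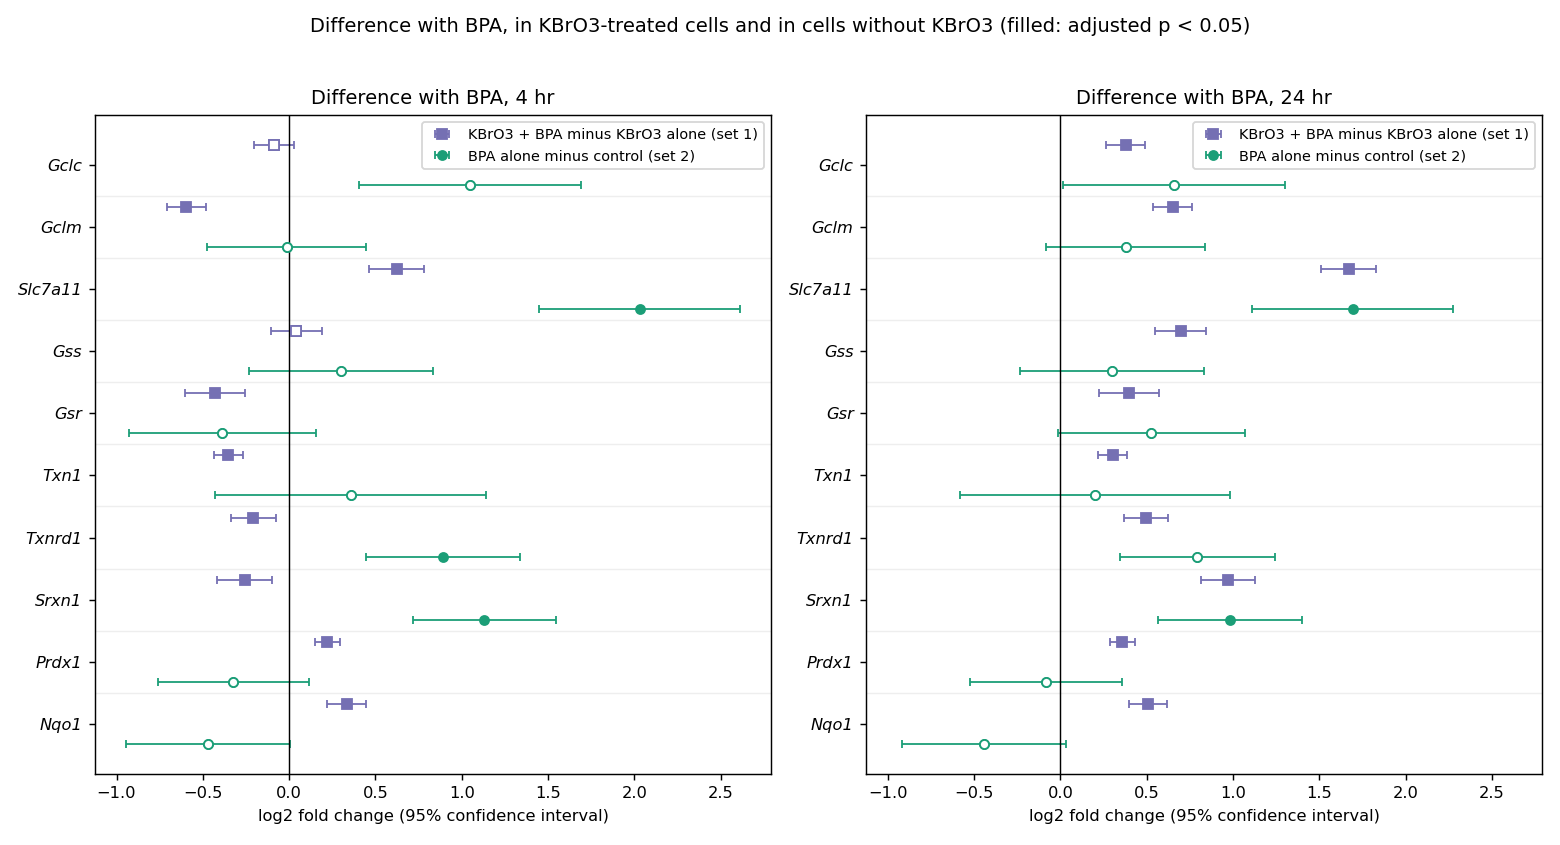
Log2 difference with BPA at 4 hr (left) and 24 hr (right), as BPA alone against the control of the second set and as co-exposure against KBrO3 alone in the first set, with 95% confidence intervals; filled symbols passed at adjusted p under 0.05. Slc7a11 lies right of 0 in all 4 comparisons, at 2.03 and 0.62 at 4 hr and at 1.69 and 1.67 at 24 hr.

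The difference with BPA was also set beside itself with and without KBrO3, in a fit over all 24 arrays. The contrast holds the set of arrays as well as the oxidant, and these cannot be told apart. At 4 hr the difference was lower beside KBrO3 than without it in 5 of the 10 genes and higher in 2, where 20.1% of all genes passed, 9.86% as lower and 10.2% as higher. The contrast was -1.41 in Slc7a11 (adjusted p = 0.000518), -1.39 in Srxn1 (adjusted p = 5.09e-06), -1.13 in Gclc (adjusted p = 0.00542), -1.10 in Txnrd1 (adjusted p = 0.000162) and -0.58 in Gclm (adjusted p = 0.0208). The 2 that were higher were Nqo1 at 0.80 (adjusted p = 0.00369) and Prdx1 at 0.55 (adjusted p = 0.0155). Both lost their calls with median scaling, at 0.67 (adjusted p = 0.0726) and 0.41 (adjusted p = 0.223). With normexp 1 of the 7 passed, Srxn1, while the adjusted p was 0.0712 in Nqo1, 0.578 in Prdx1 and 0.710 in Slc7a11. Gclm did not pass with quantile normalization (adjusted p = 0.0538) or without co-exposure array 3 of 4 hr (adjusted p = 0.0523), and Gss passed at -0.51 without BPA array 2 of 4 hr (adjusted p = 0.0251). The threshold of the study's methods kept 1 of the 10, against 1.20% of all genes. Median scaling moved the share of called probes with a higher difference from 53.3% to 34.4%.

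At 24 hr the contrast passed in 1 of the 10, Nqo1 at 0.95 (adjusted p = 0.00285; 0.87 and 0.453 with normexp), where 6.21% of all genes passed, and none of the 10 met the threshold of the study's methods, which 0.422% of all genes did. Slc7a11 had differences of 1.67 beside KBrO3 and 1.69 without it, and Srxn1 of 0.97 and 0.98. Their contrasts had adjusted p of 0.979 and 0.982, which does not show that they are alike. Without the first control array of the second set 2 genes passed, the second being Prdx1 at 0.59 (adjusted p = 0.00649).

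Over the 5 groups of the first set, 33 of the 40 steps between neighbours in the order of levels differed beyond the spread between replicates. No share of such steps was computed over all genes. In the comparisons of 2 groups of this set given above, 50.2% to 84.4% of all genes passed. The count of steps alone thus does not set these genes apart from the rest. In each of Gclc, Gclm, Slc7a11, Txnrd1, Srxn1, Prdx1 and Nqo1 the order from lowest was control, KBrO3 at 24 hr and co-exposure at 24 hr, followed by the groups of 4 hr. With normexp 20 of the 40 steps differed, and the values of Gclm and Slc7a11 at 24 hr after KBrO3 lay below the control, as given above. In that setting 3073 to 18819 of 27310 probes passed in the comparisons of 2 groups of this set given above. In the main fit, some steps did not pass. For Gclc the step between the groups of 4 hr did not pass, nor for Gss did the steps among the highest 3 groups, both of 4 hr and co-exposure at 24 hr. For Gsr and Txn1 the steps from control to KBrO3 at 24 hr and between the times of co-exposure did not pass. Each of these steps of Gsr and Txn1, that of Gclc, and the step between the times of co-exposure in Gss were called under some of the other settings given above.

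Across the 15 arrays of the first set the 10 genes varied together to different degrees, given here as a description because the arrays share 5 groups. Pearson's r was 0.997 between Srxn1 and Txnrd1, 0.994 between Gclm and Txnrd1 and 0.991 between Gclc and Srxn1. It was 0.703 between Gsr and Nqo1 and 0.707 between Gss and Txnrd1. Among 14277 other genes, the pattern most like that of Slc7a11 was Prdx6, another peroxiredoxin (r = 0.998), and those most like Gclc, Gclm and Gss were Eid3 (0.998), Zfp777 (0.997) and the mitochondrial chaperone Hspa9 (0.990). Txnrd1 was most like the translation factor Eif4a1 (0.999), Srxn1 like the transcription factor Sox9 (0.999), Prdx1 like Vps37b (0.997), Nqo1 like Btg1 (0.993), Gsr like Ifrd2 (0.976) and Txn1 like the nucleolar protein Npm1 (0.980).

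Other genes of glutathione metabolism were split between higher and lower at 4 hr after KBrO3. For the lists that follow, the shares of all genes that were higher and lower were 34.3% and 38.2% at 4 hr after KBrO3, 39.6% and 40.6% after co-exposure, 31.2% and 38.0% at 24 hr after KBrO3, and 34.3% and 38.0% after co-exposure. They were 3.09% and 1.66% for BPA alone at 4 hr and 1.81% and 2.54% at 24 hr. Of 22 tested in the first set, 10 were higher and 9 lower at 4 hr after KBrO3, with a median of -0.01, and 10 and 11 after co-exposure. The largest rises after KBrO3 were 1.89 in Esd, 1.61 in Slc3a2, the heavy chain that carries Slc7a11 to the membrane, and 1.41 in Abcc1, an exporter of glutathione conjugates. The largest falls were -0.50 in Hagh, -0.49 in Gpx8 and -0.47 in Ggt5. Chac1, which breaks down glutathione, rose by 3.44 after co-exposure at 4 hr, ahead of Slc3a2 at 2.36 and Glrx at 2.26, and Gpx8 (-0.90), Gpx1 (-0.83) and Oplah (-0.69) fell the most. At 24 hr 9 were higher and 8 lower after KBrO3, led by Esd (1.36), Glrx5 (0.86) and Ggct (0.70) against Ggt5 (-5.17), Gpx3 (-2.25) and Oplah (-1.63). After co-exposure at 24 hr 13 were higher and 8 lower, with a median of 0.38. Chac1 (2.38), Esd (2.10) and Cth (1.95), which makes cysteine from cystathionine, led the rises, and Ggt5 (-5.47) and Oplah (-1.14) were lower. Gpx3 was well above background on 1 of the 3 arrays at 24 hr after KBrO3 and on none of the co-exposed ones, where its signal was at least 4.05-fold lower than in control. BPA alone raised 3 of 24 at 4 hr (Chac1 by 2.27, Ggct by 1.14 and Slc3a2 by 1.00) and 7 at 24 hr, led by Cth (2.81), Chac1 (2.18) and Abcc4 (1.57), and lowered none. The medians of the list were 0.01 and 0.30. With normexp 17 probes of the whole array passed for BPA alone at 4 hr and 0 at 24 hr, so no call for BPA alone at 24 hr, here or in the lists that follow, held in that setting.

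The rest of the thioredoxin system was also split between higher and lower genes. Of 22 genes, 9 were higher and 10 lower at 4 hr after KBrO3 (median -0.02), and 9 and 13 after co-exposure. Sesn2, a stress-induced sestrin, rose by 2.29 and 3.09, Prdx6 by 2.26 and 2.41 and Txnrd3 by 2.16 and 1.96. Txnip, which binds thioredoxin and inhibits it, was lower at -3.57 and -4.10, and Sesn3 at -1.26 and -1.65. At 24 hr 4 were higher and 14 lower after KBrO3 alone, with Msra (0.48), Prdx3 (0.45) and Prdx6 (0.38) the largest rises and Sesn3 (-1.63), Msrb1 (-0.94) and Txnip (-0.89) the largest falls. After co-exposure at 24 hr it was 8 and 12, with Sesn2 at 1.49, Prdx6 at 1.12 and Txn2 at 0.83 against Txnip at -2.21, Sesn3 at -1.60 and Msrb3 at -1.44. BPA alone raised 1 gene at each time, Sesn2 by 1.19 at 4 hr and 1.37 at 24 hr, and lowered 1, Txnip, at 24 hr (-1.49, adjusted p = 0.0399).

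Of 22 further NRF2 targets, 17 were higher and 2 lower at 4 hr after KBrO3 (median 0.70), and 13 and 4 after co-exposure (median 0.43). Hmox1, heme oxygenase, rose by 6.22 and 6.35, Osgin1 by 4.14 and 3.70 and Pgd, an NADPH-making enzyme of the pentose phosphate pathway, by 2.35 and 2.85. Cbr1 fell in both (-0.78 and -1.16), Aox1 after KBrO3 (-0.27) and Gstm1 (-1.03) and Pir (-0.48) after co-exposure. At 24 hr the split after KBrO3 alone was 6 higher and 11 lower, from Pgd at 0.53 and Abcb6 at 0.48 to Aox1 at -1.63, Gstm1 at -1.57 and the ferritin gene Fth1 at -1.07. After co-exposure it was 13 and 7, from Gsta4 at 2.01 and Hmox1 at 1.98 to Gstm1 at -1.15, Aox1 at -0.77 and Ugdh at -0.58. Gsta3 passed at 24 hr in both (0.42 and 1.90), with only 1 of its 3 control arrays well above background. Against KBrO3 alone, co-exposed cells had 2 of the 22 higher and 14 lower at 4 hr, and 18 higher and 2 lower at 24 hr, beside 28.2% and 32.5% of all genes at 4 hr and 28.2% and 22.0% at 24 hr. BPA alone raised Hmox1 at 4 hr (1.5) and Hmox1 (1.69) and Abcb6 (1.11) at 24 hr, and lowered none.

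Among the 6 regulators, Nfe2l2 itself, chosen for mention after its values were seen, was higher by 1.35 at 4 hr after KBrO3 and by 1.39 after co-exposure. Maff (2.00), Mafk (1.95) and the repressor Bach1 (1.70) were the largest rises after KBrO3, and Mafk (1.64), Nfe2l2 and Mafg (1.32) after co-exposure. Keap1 was the 1 gene that fell, at -0.70 with KBrO3 and -1.20 with both agents. At 24 hr after KBrO3 Mafg (0.50) and Mafk (0.39) were higher and Maff (-0.33) and Nfe2l2 (-0.28) lower, and after co-exposure Mafg (1.01), Mafk (0.47) and Keap1 (0.19) were higher and Maff (-0.16) lower. BPA alone raised Maff at 4 hr (1.28) and none of the 6 at 24 hr.

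**Figure D4:**
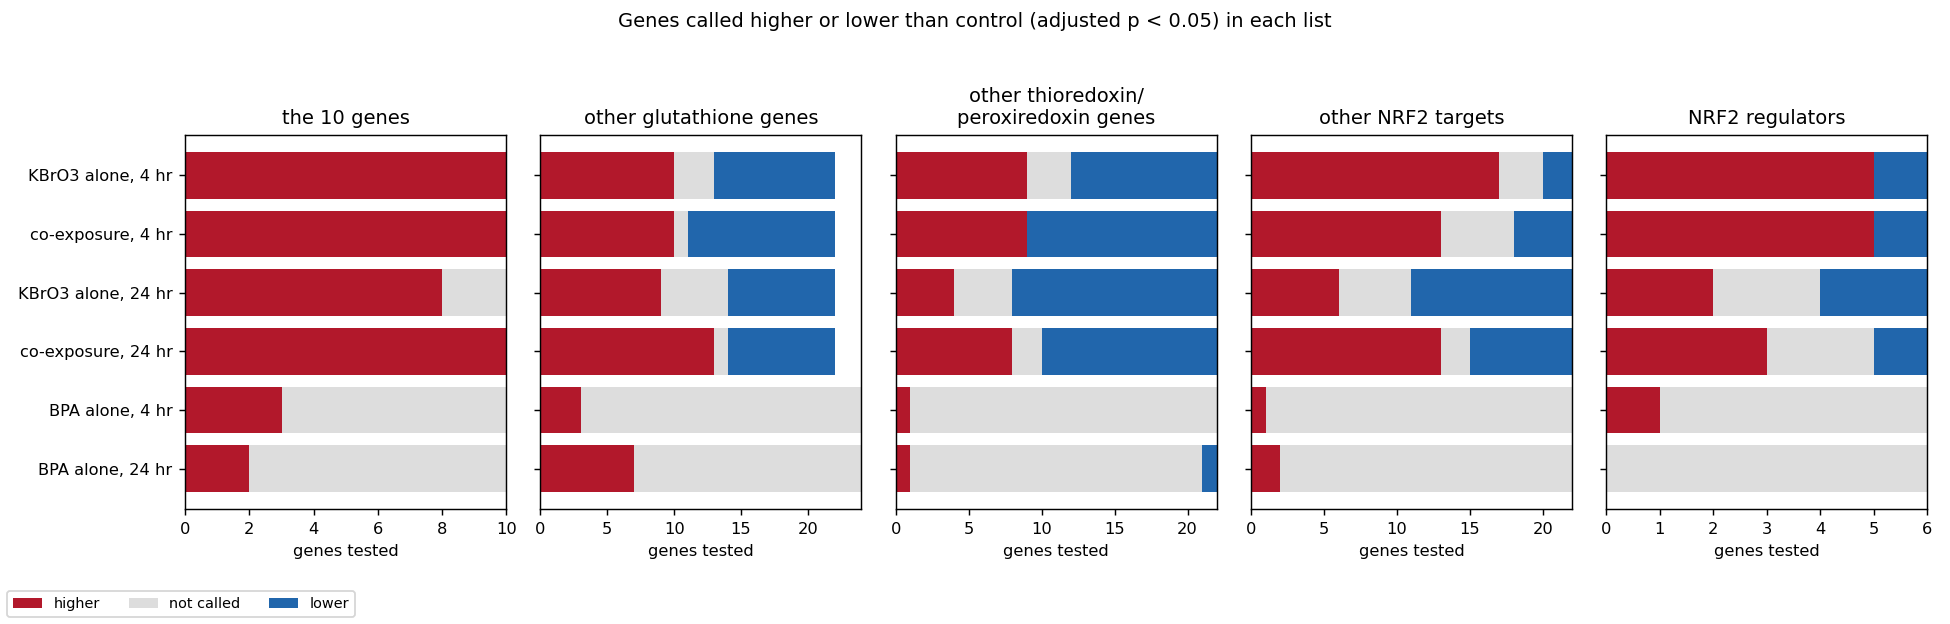
Number of genes higher, lower and not passing at adjusted p under 0.05 in each comparison, for the 10 genes described here and for the lists of other glutathione, thioredoxin, NRF2 target and NRF2 regulator genes. All 10 genes are higher in 3 of the 4 comparisons of KBrO3 or co-exposure with control, and 17 of the 22 other NRF2 targets are higher at 4 hr after KBrO3.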

How the data were processed

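Total RNA of 24 samples was labelled with Cy3 and hybridised to Agilent whole mouse genome 4x44K one-color arrays. The deposited scanner files hold the processed signal intensity of each spot, background-subtracted by Agilent Feature Extraction, version 9.5.3.1 in the 15 arrays of the first set and 12.0.0.7 in the 9 of the second per the file headers (12.0 in the submitters' processing notes). The deposited series table holds the same intensity values, equal in all 1080432 cells. The headers carry the annotation builds mm7 and mm9; no coordinate was taken from the arrays.

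Outlier and control spots were left out, spots of a probe were averaged, and each array's 75th percentile was subtracted from the log2 intensity. Gene names of the array were updated through RefSeq symbols (24524 probes by current symbol, 7767 by an older synonym, 8883 unmatched). Unmatched probes were filtered, tested and adjusted with the rest, but they enter no share of genes and no search for similar genes. A probe was tested where all arrays of some group had it well above background, which left 27310 probes (first set) and 31806 (second set). limma 3.58.1 (R 4.3.3; lmFit and eBayes, two-sided) was fitted to each set with a mean per group, and p-values were adjusted by Benjamini-Hochberg over all probes tested; a gene was called at an adjusted p under 0.05. Contrasts between sets were fitted on all 24 arrays. Fold changes are differences of log2 intensity, no pseudocount was used, and the number of arrays limits the precision. The fit was tested on simulated data.

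The 10 genes and all gene lists were chosen with earlier results of these data known. All 10 genes are named, each by its probe with the highest mean over all arrays; from each list, up to 3 called genes with the largest rise and 3 with the largest fall in each comparison with control. For each of the 10, the most similar gene by Pearson's r over the arrays of the first set is named. Marker lists covered fibroblast, leukocyte, epithelial, endothelial, muscle and adipocyte genes. The alternatives tried were median scaling, quantile normalization, normexp background correction, the series table, other filters on dim probes, the mean of all probes of a gene, an error-weighted fit, slide as a block, the replicate number as a block, only the groups compared, the threshold of the study's methods, and leaving out each array. Alternatives for the order of levels were chosen after seeing the data. Samples were grouped by their labels. No 2 arrays of a group held the same values.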

Additional observations from a re-analysis of the deposited data

Results flagged for a closer look

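The difference with BPA beside KBrO3 changed from 4 to 24 hr by the interaction test in limma, and was listed because the effect differed between time points. The change was 0.47 in Gclc, 1.25 in Gclm, 0.65 in Gss, 0.83 in Gsr, 1.05 in Slc7a11, 0.65 in Txn1, 0.70 in Txnrd1, 1.23 in Srxn1 and 0.14 in Prdx1, all upward on the log2 scale, with the largest adjusted p, 0.0274, in Prdx1, which kept its call in 10 of 20 other settings. Among those settings was the series table, whose values are the same. The change was higher in 9 of the 10 genes beside 31.0% of all genes. At 4 hr the co-exposure and KBrO3 arrays lay on different slides, so slide and BPA cannot be told apart in that arm.

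The difference with BPA also differed between cells with and without KBrO3 by a test over all 24 arrays. At 4 hr the values were -1.13 in Gclc, -0.58 in Gclm, -1.41 in Slc7a11, -1.10 in Txnrd1, -1.39 in Srxn1, 0.55 in Prdx1 and 0.80 in Nqo1, beside 20.1% of all genes passing in either direction. At 24 hr the value was 0.95 in Nqo1. Cells with and without KBrO3 lay in different sets of arrays, so that set and oxidant cannot be told apart in these values. No group held 4 or more samples, so no single array was tested as standing apart.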

How the results depend on the processing

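Of the values of single genes under other settings, 1520 kept their side of the threshold, 81 lost their call, 13 gained one and 6 turned with a call in either setting. When single arrays were left out 996 kept their side, 20 lost and 4 gained a call and no called value turned. Among those that kept their side are 60 values without a call that changed sign. The series table, 1 of the other settings, holds the same values as the scanner files, so its results were fixed in advance. With normexp background correction 0 of the 10 genes passed for BPA alone at 4 hr and at 24 hr, 1 and 6 for co-exposure against KBrO3 alone at 4 and 24 hr, 5 for the change of that difference, 1 and 0 for the contrast with BPA alone at 4 and 24 hr, and 20 of the 40 steps in the order of levels differed. The threshold of the study's methods left 4 for KBrO3 at 24 hr, 0 for BPA alone at 4 hr and at 24 hr, and 1 and 4 for co-exposure against KBrO3 alone at 4 and 24 hr. BPA alone at 24 hr had 0 genes in a fit of only the groups compared, and both its times had 0 with slide as a fixed block, which could not be fitted where no slide linked the groups. Normexp turned Gclm to -0.18 and Slc7a11 to -0.33 for KBrO3 at 24 hr. With it 3073 to 18819 of 27310 probes passed in the comparisons of 2 groups of the first set, and no share of steps was computed over all genes. Median scaling and quantile normalization turned Txn1 to 0.37 and 0.36 between 4 and 24 hr of co-exposure, and quantile normalization turned Prdx1 to -0.11 in the change of the difference. The mean of all probes turned Srxn1 to 0.078 for co-exposure against KBrO3 alone at 4 hr. The cause of these changes was not tested.

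Leaving out each array in turn gave 10 genes called for KBrO3 at 4 hr and for co-exposure against control at both times, 8 for KBrO3 at 24 hr, 8 and 10 for co-exposure against KBrO3 alone at 4 and 24 hr, 10 for KBrO3 and 7 to 8 for co-exposure between the times, 8 to 10 for the change of the difference, 6 to 8 and 1 to 2 for the contrast with BPA alone at 4 and 24 hr, and 0 between the times of BPA alone. For BPA alone at 4 hr the range was 1 to 2, with 1 gene without BPA array 2 or 3, and at 24 hr 1 to 2, with 1 gene without any 1 of the control arrays or BPA array 1 or 2. The contrast at 24 hr had 2 genes without the first control array of the second set.

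Replicate numbers did not pair the samples. The correlation of same-numbered samples' deviations had a mean of -0.03 (-0.21 to 0.10) for the first set and 0.00017 (-0.47 to 0.71) for the second. With the replicate number as a block, 1 gene passed for BPA alone at 24 hr, and no other count of called genes moved by over 1.5 times. The slide correlation used as a random block was 0.634 (first set) and 0.115 (second set).

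Median scaling moved the median of all probes by 0.15 for KBrO3 at 24 hr, with the share of called probes that were higher going from 48.6% to 61.0%. For co-exposure at 24 hr it moved the median by 0.32 and that share from 47.1% to 68.2%, and between 4 and 24 hr of co-exposure by 0.46 and from 40.4% to 62.3%. Quantile normalization moved the share from 43.8% to 54.1% between 4 and 24 hr of KBrO3 and from 40.4% to 51.9% between those of co-exposure. Normexp moved the median of comparisons with the first control by -0.45 to -0.53, and that share to 27.3% for KBrO3 at 24 hr, 38.8% for co-exposure at 4 hr (from 53.0%) and 29.8% at 24 hr. Under normexp 17 probes passed for BPA alone at 4 hr and 0 at 24 hr, against 1349 and 1084.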
